A study of Mus musculus with 12 samples.

Results

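The genes that carry fatty acids into the heart and oxidise them were followed in left ventricles of mice after aortic banding (AB) and treatment with hispidulin, a plant flavonoid. The set held 30 of the 18079 genes in the table, found by their gene identifiers and divided by step: 4 for uptake, 6 for activation and the carnitine shuttle, 13 for mitochondrial oxidation, 3 for electron transfer and 4 of the peroxisome. All 30 were listed, and all 30 passed the filter on low values that left 11664 genes to test. The mice were C57BL/6 in the labels and male C57BL/6J in the study's methods, operated on at 8 weeks of age in the labels (8 to 10 weeks in the methods) and sampled 4 weeks later, and every mouse gave 1 library of polyadenylated RNA, read as single ends of 50 bases. DMSO+Sham mice received the solvent DMSO and a sham operation, and hispidulin+Sham mice received hispidulin at 20 mg/kg/day by intraperitoneal injection and the sham operation. DMSO+AB and hispidulin+AB mice received the same agents and had the descending aorta narrowed, which loads the ventricle with pressure. Dosing began 1 day ahead of the operation in all 4 groups, each group held 3 mice, and the numbers 1 to 3 below, taken from the sample titles, name different mice in each group. Because hispidulin started ahead of banding, the design concerns its presence throughout and not treatment of an established load.

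The adult heart makes most of its ATP from fatty acids. Lipoprotein lipase frees them from circulating triglyceride, membrane carriers and a cytosolic binding protein bring them in, and acyl-CoA synthetases trap them as acyl-CoA. The carnitine shuttle then takes the acyl group across the mitochondrial membranes, where each turn of beta-oxidation uses a dehydrogenase, a hydratase, a second dehydrogenase and a thiolase to release acetyl-CoA. Auxiliary isomerases and a reductase prepare unsaturated chains for that cycle, electron transfer flavoprotein hands the electrons to the respiratory chain, and peroxisomes shorten chains that mitochondria handle poorly. A lower use of fatty acids and a higher use of glucose are a known trait of the pressure-overloaded heart.

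Expression was deposited as FPKM, the reads of a gene scaled by its length and by the library. Summed over genes, FPKM came to 535235 to 567027 per library. Read counts were not analysed here, so the depth is unknown and no counting error is given. The tissue label fitted most of the markers. The 8 cardiomyocyte genes summed to between 38792 and 56358 FPKM in every group. The 7 fat cell genes summed to at most 4.34 FPKM, with adiponectin (Adipoq) at most at 0.40 FPKM. Of 3 brown fat cell genes, Ucp1 reached at most 0.05 FPKM and Elovl3 0.13 FPKM, while Cidea read 22.0 to 31.8 FPKM over all mice. The hypertrophy genes Nppa, Nppb, Myh7 and Acta1 summed to 452 to 1057 FPKM in DMSO+Sham and to 4311, 12735 and 16341 FPKM in DMSO+AB mice 1, 2 and 3. Mouse 1 thus had the lowest sum of DMSO+AB, but its Nppb, at 1394 FPKM, was near the 1451 FPKM of mouse 3. In hispidulin+AB these genes summed to 3818 to 6335 FPKM. Myl7, an atrial myosin light chain, stood at 333 FPKM in hispidulin+Sham mouse 3, at 67.5 FPKM in DMSO+AB mouse 2 and at 42.3 FPKM in hispidulin+AB mouse 3, against at most 15.03 FPKM in the other mice, and counts are given below without these 3 libraries. The exons of 7 of the 30 genes overlap another annotated gene (Cpt1b and Etfb on the same strand, and Acadvl, Crat, Eci2, Fabp3 and Hadha on the opposite strand). Whether counting used strand is not given in the sources used here, so part of their reads may belong to the neighbour.

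The levels of these genes spanned a wide range, and 23 of the 30 ranked 714th or higher among all genes of the table by mean FPKM. Fabp3, which binds fatty acids in the cytosol, ranked 7th of all genes by mean FPKM over the 12 mice, at 5823 FPKM. Lpl, the lipoprotein lipase, followed at 1621 FPKM, and Hadhb, the beta subunit of the mitochondrial trifunctional protein, at 1051 FPKM. At the other end stood Cpt1a at 13.6, the peroxisomal reductase Pecr at 8.47 and the peroxisomal bifunctional enzyme Ehhadh at 7.38 FPKM. The 30 genes together made up 3.12% ± 0.175 (SD, n = 3) of the summed FPKM in DMSO+Sham, 3.00% ± 0.0201 in hispidulin+Sham, 2.53% ± 0.319 in DMSO+AB and 2.83% ± 0.118 in the hispidulin+AB group. The range in DMSO+AB, 2.19% to 2.82%, lay below the range of 2.92% to 3.24% in DMSO+Sham and overlapped that of hispidulin+AB, 2.75% to 2.97%. Replicate mice spread by a median coefficient of variation of 8.00% in DMSO+Sham, 6.78% in hispidulin+Sham, 13.9% in DMSO+AB and 5.90% in the hispidulin+AB group over the 30 genes, beside medians over all genes tested of 15.0%, 10.5%, 15.6% and 8.66% in the same order of groups.

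**Figure D1:**
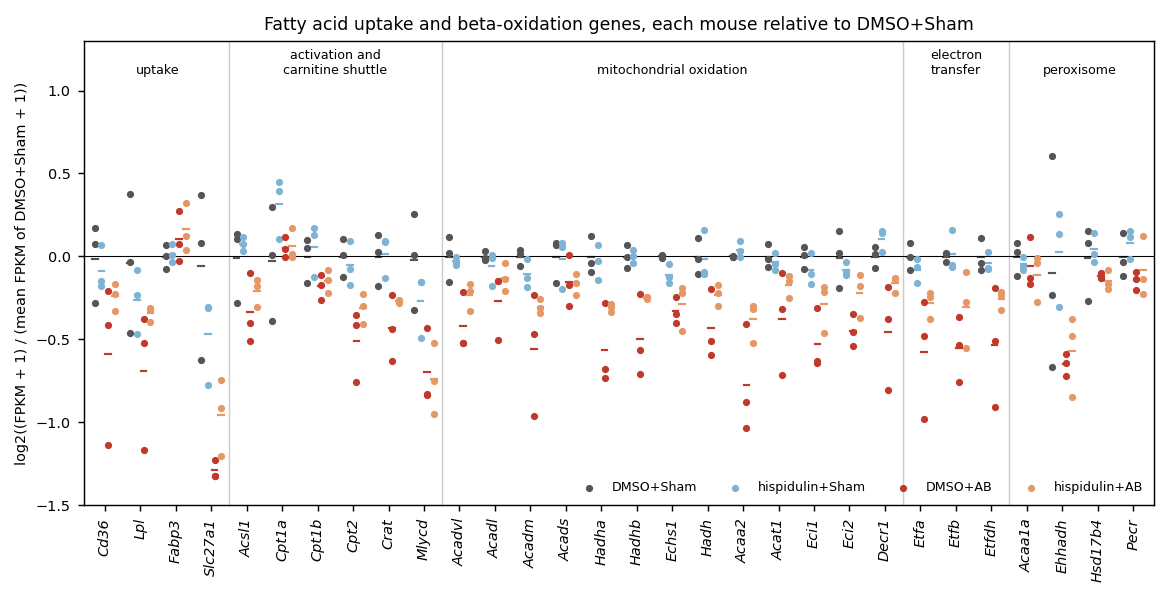
Each point is 1 mouse. The horizontal axis lists the 30 genes by step, and the vertical axis gives log2 of FPKM + 1 over the DMSO+Sham mean of FPKM + 1. Short bars are group means. The 3 DMSO+AB mice lie below all 3 DMSO+Sham mice for 19 genes, and the peroxisomal genes show no such gap.

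The question of what banding did to fatty acid oxidation is addressed by DMSO+AB against DMSO+Sham. Of the 30 genes, 12 fell after banding and 0 rose at an adjusted p under 0.05 (limma on log2(FPKM + 1), Benjamini-Hochberg over all 11664 genes), against 2.71% of all genes tested that fell. At an unadjusted p under 0.05 there were 22 lower and 0 higher, against 11.1% of all genes lower and 9.25% higher. The 12 were 1 of 4 for uptake (Slc27a1), 2 of 6 for activation and the shuttle (Cpt2 and Mlycd), 7 of 13 for mitochondrial oxidation (Acadvl, Acadm, Hadha, Hadhb, Acaa2, Eci1 and Eci2), 2 of 3 for electron transfer (Etfa and Etfb) and 0 of 4 for the peroxisome. The estimate was lower in 28 of the 30, beside 55.8% of all genes, with a median log2 fold change of -0.45 beside -0.03 over all genes tested, and in 19 the groups did not overlap, beside 10.8% of all genes whose DMSO+AB values all lay lower. Of the 12 genes the study printed in a heat map, a list chosen on these samples and so not independent, 8 passed, and of the other 18, 4 passed. The 8 cardiomyocyte genes gave 2 that fell (Ryr2 and Pln) and 0 that rose, and their sum was 38792 to 56358 FPKM in DMSO+Sham and 45813 to 50785 FPKM in DMSO+AB. Of 8 fibroblast genes 3 rose (Col1a1, Col1a2 and Postn), with sums of 346 to 448 FPKM in DMSO+Sham and of 406 to 987 FPKM in DMSO+AB. Their part in the lower values was not tested, and in whole ventricle fewer cells of a type and less RNA per cell cannot be told apart.

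The count of 12 depended on single mice, whereas the median difference moved little. Without DMSO+Sham mouse 1 it was 0, without DMSO+Sham mouse 3 it was 6, without DMSO+AB mouse 2 it was 1, without DMSO+AB mouse 3 it was 3 and without DMSO+AB mouse 1 it was 18. It was 0 without the 3 libraries of raised Myl7, 0 with only the 6 compared libraries in the model, and 0 with the series of the animal numbers (low, high, or the single DMSO+Sham mouse 1) as a covariate, a fit that in effect drops DMSO+Sham mouse 1. Over these settings no gene of the set was called higher, and the median log2 fold change stayed between -0.54 and -0.36 when single mice were left out. Within the low number series (1 mouse against 1) the median difference was -0.50, within the high series (2 against 1) it was -0.33, and 27 genes were lower in each.

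**Figure D2:**
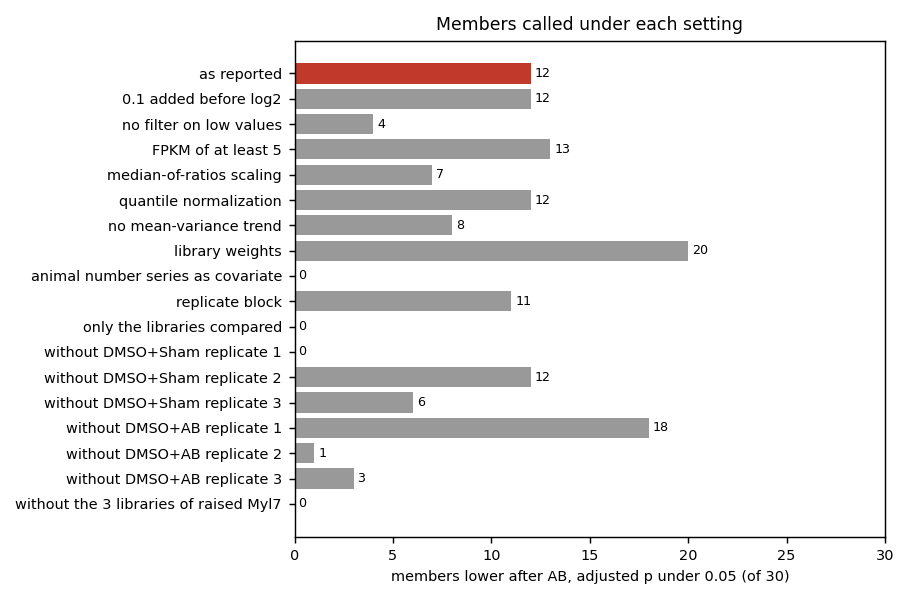
Bars give, for each setting named on the vertical axis, the number of the 30 genes lower in DMSO+AB than in DMSO+Sham at an adjusted p under 0.05. The count as reported is 12, it is 20 with library weights, and it is 0 in 4 settings that leave out libraries or add the number series.

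**Figure D3:**
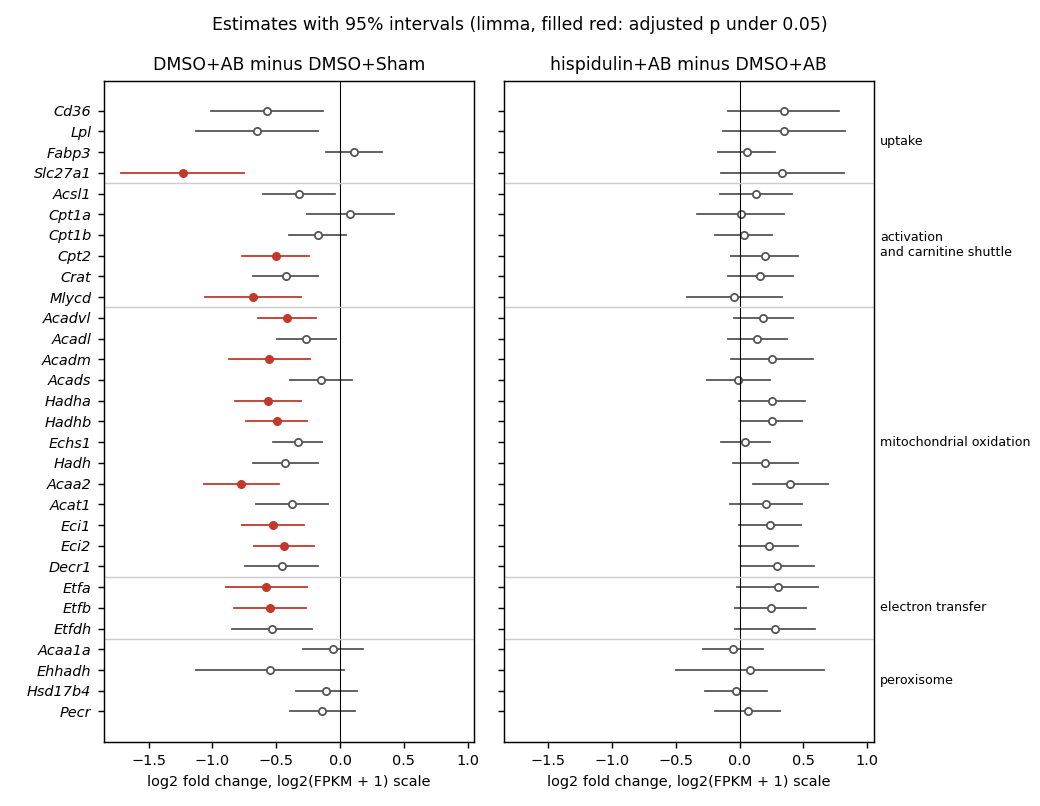
Points are log2 fold changes and lines are 95% intervals from limma on the log2(FPKM + 1) scale, by gene and step. After banding (left) 12 genes passed, all lower, and hispidulin+AB against DMSO+AB (right) gave 0, with 26 of 30 estimates above 0.

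Uptake genes did not move together after banding. Slc27a1, the fatty acid transport protein FATP that couples uptake to activation, showed the largest fall of the whole set. Its FPKM was 92.5, 56.3 and 113 in DMSO+Sham, 70.1, 70.4 and 50.5 in hispidulin+Sham, 36.7, 34.3 and 34.3 in DMSO+AB and 45.9, 51.6 and 37.4 in the hispidulin+AB mice. All DMSO+AB values lay below all DMSO+Sham values, and within DMSO+Sham the mice spread widely. The fall was 2.35-fold on the log2(FPKM + 1) scale (log2 fold change -1.23, SE 0.22, adjusted p = 0.0124, limma), and the call held in 12 of 17 alternative settings. The most abundant uptake gene, Fabp3, was listed at 5799, 5538 and 5230.5 in DMSO+Sham, 5827, 5554 and 5397 in hispidulin+Sham, 5821, 6677 and 5427 in DMSO+AB and 6017, 6912 and 5681 in the hispidulin+AB mice. These ranges overlapped, and its log2 fold change after banding was 0.11 (SE 0.10, adjusted p = 0.584). Fabp3 thus had the highest estimate of the set after banding, with a 95% interval of -0.11 to 0.33. Lpl read 1942, 1442 and 2574 in DMSO+Sham, 1691, 1436 and 1875 in hispidulin+Sham, 1529.8, 1381 and 885 in DMSO+AB and 1588, 1600.2 and 1513 in the hispidulin+AB mice. DMSO+AB mouse 3 was the lowest of all 12 and DMSO+AB mouse 2 also lay below every sham mouse, while DMSO+AB mouse 1 fell within the sham range, and the log2 fold change was -0.65 (SE 0.22, adjusted p = 0.116). Cd36, the main fatty acid translocase of the plasma membrane, followed the same order of mice, with 662, 573 and 348 FPKM in DMSO+AB against 628 to 861 in DMSO+Sham (log2 fold change -0.57, adjusted p = 0.129).

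**Figure D4:**
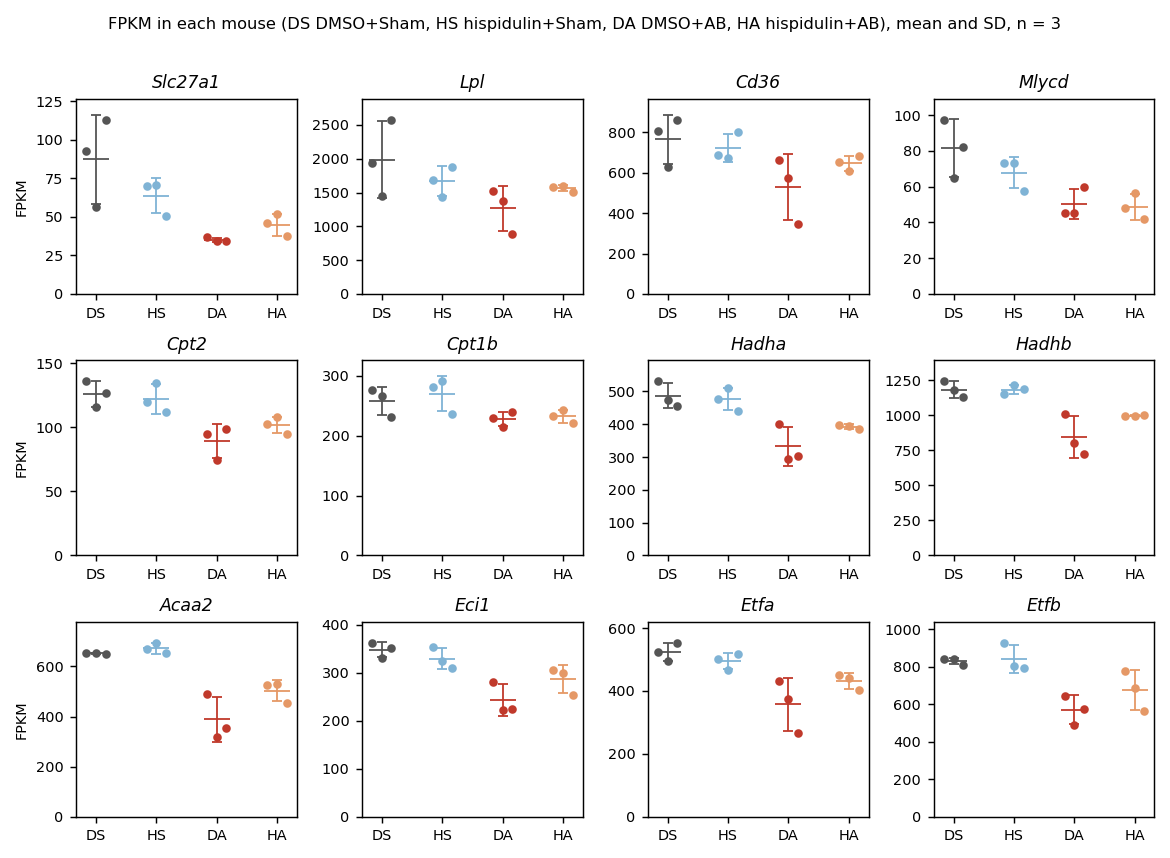
FPKM of 12 genes in each mouse, in panels that start at 0. Points are mice 1, 2 and 3 from left to right, and bars are the mean and SD (n = 3). Slc27a1 in DMSO+AB lies between 34.3 and 36.7 FPKM, below every DMSO+Sham mouse, and in Hadhb the 3 hispidulin+AB mice lie between 990.4 and 998 FPKM, inside the wider DMSO+AB range.

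In the activation and carnitine step Cpt2 and Mlycd fell, and neither form of the entry enzyme passed. Cpt2, the inner membrane transferase that returns the acyl group to CoA, read 136, 116 and 127 in DMSO+Sham, 119.7, 134 and 112 in hispidulin+Sham, 94.4, 74.1 and 98.7 in DMSO+AB and 102, 108 and 94.8 in the hispidulin+AB mice. Its banded mice without hispidulin were all below the sham mice, a fall of 1.42-fold (log2 fold change -0.50, SE 0.12, adjusted p = 0.0355) that held in 8 of 17 settings. Mlycd, the malonyl-CoA decarboxylase that removes the inhibitor of carnitine palmitoyltransferase, was listed at 97.4, 65.1 and 82.0 in DMSO+Sham, 73.1, 73.0 and 57.8 in hispidulin+Sham, 45.4, 45.2 and 60.1 in DMSO+AB and 48.0, 56.5 and 41.8 in the hispidulin+AB mice. It fell 1.6-fold after banding (log2 fold change -0.68, SE 0.17, adjusted p = 0.0426), and the call held in 6 of 17 settings. Acsl1, the main acyl-CoA synthetase of the heart and the most abundant gene of this step, stood at 297, 291 and 222 in DMSO+Sham, 284, 293 and 276 in hispidulin+Sham, 252, 189.9 and 204 in DMSO+AB and 218, 239 and 245 in the hispidulin+AB mice. DMSO+AB mouse 1 reached into the DMSO+Sham range, and the estimate of -0.32 did not pass (SE 0.13, adjusted p = 0.18). Crat, the carnitine acetyltransferase that buffers acetyl-CoA, had 199, 151 and 173 FPKM in DMSO+AB against 207 to 256 in DMSO+Sham, groups that did not overlap, with an adjusted p of 0.0579.

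Carnitine palmitoyltransferase of the outer membrane, the rate-limiting entry to the mitochondrion, exists as a muscle form, Cpt1b, and a liver form, Cpt1a, that also rises in the fetal and diseased heart. Cpt1b read 276, 267 and 231 in DMSO+Sham, 282, 291 and 237 in hispidulin+Sham, 229, 215 and 239 in DMSO+AB and 234, 244 and 221 in the hispidulin+AB mice. The groups overlapped, and the log2 fold change after banding was -0.18 (SE 0.10, adjusted p = 0.367). Cpt1a was listed at 15.6, 12.6 and 9.31 in DMSO+Sham, 17.4, 16.7 and 13.5 in hispidulin+Sham, 12.4, 13.6 and 12.9 in DMSO+AB and 12.6, 12.4 and 14.2 in the hispidulin+AB mice, again with overlapping groups and a log2 fold change of 0.08 (SE 0.16, adjusted p = 0.815). The liver form made up 5.33%, 4.49% and 3.87% of the summed FPKM of both forms in DMSO+Sham, 5.80%, 5.42% and 5.39% in hispidulin+Sham, 5.14%, 5.94% and 5.12% in DMSO+AB and 5.12%, 4.86% and 6.02% in the hispidulin+AB group. The muscle form therefore dominated in every mouse. The share was 0.838 percentage points higher in DMSO+AB than in DMSO+Sham (exact two-sided permutation p = 0.3) and lower by a difference of -0.0646 points in hispidulin+AB than in DMSO+AB (exact permutation p = 0.9), and 3 mice against 3 cannot give a p under 0.1.

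The mitochondrial cycle held most of the falls. They covered its first and last reactions and, with Hadha, a subunit of the protein that also carries the reactions between them. All 13 estimates were lower after banding, and the groups did not overlap for 12 of 13, with Acads, the short-chain dehydrogenase, as the exception (116, 115 and 97.9 FPKM in DMSO+Sham, 97.3, 88.9 and 110.2 in DMSO+AB, adjusted p = 0.492). Acaa2, the mitochondrial ketoacyl-CoA thiolase, ranked first by size. Its FPKM was 655, 652 and 651 in DMSO+Sham, 668, 695 and 652 in hispidulin+Sham, 491, 319 and 354 in DMSO+AB and 524, 531 and 455 in the hispidulin+AB mice. The sham mice of both agents lay within 651 to 695 FPKM, and all banded mice lay below them. The fall in DMSO+AB was 1.71-fold (log2 fold change -0.77, SE 0.13, adjusted p = 0.0117), and it was the call that held most often, in 13 of 17 settings.

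Hadha and Hadhb encode the alpha and beta subunits of the trifunctional protein, which carries the hydratase, long-chain hydroxyacyl dehydrogenase and thiolase activities. Hadha read 531, 475 and 456 in DMSO+Sham, 478, 511 and 442 in hispidulin+Sham, 401, 293 and 304 in DMSO+AB and 399, 394 and 386 in the hispidulin+AB mice. Hadhb was listed at 1241, 1178 and 1126 in DMSO+Sham, 1148, 1212 and 1186 in hispidulin+Sham, 1011, 801 and 723 in DMSO+AB and 996, 990.4 and 998 in the hispidulin+AB mice. In both, DMSO+AB mouse 1 kept the highest value of its group and mice 2 and 3 lay clearly lower. Hadha fell 1.48-fold (log2 fold change -0.56, SE 0.12, adjusted p = 0.023) and Hadhb 1.41-fold (log2 fold change -0.50, SE 0.11, adjusted p = 0.0267), and the calls held in 11 and 10 of 17 settings. The ratio of Hadhb to Hadha FPKM was 2.43 ± 0.0802 (SD, n = 3) in DMSO+Sham, 2.49 ± 0.173 in hispidulin+Sham, 2.55 ± 0.178 in DMSO+AB and 2.53 ± 0.0477 in the hispidulin+AB group, and the ranges of this ratio overlapped between DMSO+AB and DMSO+Sham while the levels did not.

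Promoter windows of RefSeq (GRCm38.p6, 250 bases before to 50 after a start) were at hand for 23 of the 30 genes, and those of 3 genes that fell are shown. Hadhb was chosen for the window it shares in part with Hadha, and Acadm and Acadvl because they hold the half-site searched for. Hadha and Hadhb start 273 bases apart on opposite strands of chromosome 5, and their windows share 228 bases, so the windows of both subunits are largely the same stretch. Capitals mark the GC box GGGCGG and the nuclear receptor half-site AGGTCA, searched on both strands (CCGCCC and TGACCT as their complements). The first window is that of Hadhb on the plus strand (chr5:30155003-30155302), which holds 4 GC boxes, at bases 161, 226, 261 and 275. Its first 228 bases are the shared ones, so only the box at base 161 lies wholly in the shared stretch. The others are those of Acadm (chr3:153944594-153944893) and Acadvl (chr11:70015379-70015678), both on the minus strand, each with 1 half-site.
Hadhb: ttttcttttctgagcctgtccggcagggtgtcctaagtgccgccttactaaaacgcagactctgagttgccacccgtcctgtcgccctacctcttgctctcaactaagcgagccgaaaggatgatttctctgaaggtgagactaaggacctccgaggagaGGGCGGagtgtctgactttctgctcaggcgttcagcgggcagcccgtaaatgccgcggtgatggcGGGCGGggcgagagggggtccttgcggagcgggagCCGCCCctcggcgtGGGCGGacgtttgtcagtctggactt
Acadm: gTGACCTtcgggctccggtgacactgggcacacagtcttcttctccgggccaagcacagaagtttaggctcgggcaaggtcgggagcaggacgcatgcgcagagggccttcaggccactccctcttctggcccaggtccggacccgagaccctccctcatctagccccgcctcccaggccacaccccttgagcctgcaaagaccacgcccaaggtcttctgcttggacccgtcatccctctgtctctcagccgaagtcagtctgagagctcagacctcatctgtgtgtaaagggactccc
Acadvl: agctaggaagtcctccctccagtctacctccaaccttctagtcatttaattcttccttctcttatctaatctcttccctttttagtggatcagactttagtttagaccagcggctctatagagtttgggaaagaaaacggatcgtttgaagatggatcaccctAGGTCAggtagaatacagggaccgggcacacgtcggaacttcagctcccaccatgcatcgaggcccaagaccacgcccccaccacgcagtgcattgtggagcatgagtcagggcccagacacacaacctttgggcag
GGGCGG occurred in 73.1% of the 26 windows of these 23 genes and in 35.7% of all 32851 windows, and AGGTCA in 19.2% and 16.3%, in the windows of Acadm, Acadvl, Cd36, Cpt1a and Echs1. Of those 5 genes, Acadm and Acadvl passed after banding. A match describes the letters only. The 26 windows are not independent, since those of Hadha and Hadhb overlap and Slc27a1 has 3. The 32851 windows were not chosen by level in the heart, so the shares do not compare like with like.

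The dehydrogenases that open the cycle are specific for chain length. Acadvl, for very long chains, read 667, 551 and 624 in DMSO+Sham, 613, 601 and 593 in hispidulin+Sham, 528, 427 and 427 in DMSO+AB and 547, 532 and 489 in the hispidulin+AB mice. Acadm, for medium chains, read 666, 677 and 633 in DMSO+Sham, 579, 653 and 603 in hispidulin+Sham, 560.0, 476 and 337 in DMSO+AB and 531, 552 and 521 in the hispidulin+AB mice. Both kept every DMSO+AB mouse below every DMSO+Sham mouse, and Acadm ranged most widely within DMSO+AB. Acadvl fell 1.33-fold (log2 fold change -0.42, SE 0.10, adjusted p = 0.0416) and Acadm 1.47-fold (log2 fold change -0.56, SE 0.15, adjusted p = 0.0496), the latter just inside the threshold and held in only 5 of 17 settings. Acadl, for long chains, had 548, 549.6 and 428 FPKM in DMSO+AB against 598 to 621 in DMSO+Sham and did not pass (log2 fold change -0.27, adjusted p = 0.178).

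Eci1 and Eci2 are enoyl-CoA isomerases that shift unsaturated bonds so that the cycle can go on. Eci1 stood at 363, 331 and 351 in DMSO+Sham, 354, 324 and 310.4 in hispidulin+Sham, 281, 223 and 225 in DMSO+AB and 306, 299.6 and 253 in the hispidulin+AB mice. Eci2 stood at 149.5, 129 and 164 in DMSO+Sham, 137, 138 and 144 in hispidulin+Sham, 116, 107 and 101 in DMSO+AB and 130.5, 137 and 114 in the hispidulin+AB mice. Neither isomerase overlapped between DMSO+AB and DMSO+Sham. Eci1 fell 1.44-fold (log2 fold change -0.53, SE 0.11, adjusted p = 0.0233) and Eci2 1.36-fold (log2 fold change -0.44, SE 0.11, adjusted p = 0.0376), with calls that held in 11 and 7 of 17 settings. A further 4 enzymes missed the threshold with groups that did not overlap. They were Echs1, the short-chain enoyl-CoA hydratase (log2 fold change -0.33, adjusted p = 0.053), Hadh, the hydroxyacyl-CoA dehydrogenase (-0.43, adjusted p = 0.0565), Decr1, the dienoyl-CoA reductase (-0.46, adjusted p = 0.0684), and Acat1, the acetoacetyl-CoA thiolase (-0.38, adjusted p = 0.122). As a sum, the 13 mitochondrial genes reached 5870 ± 151 FPKM (SD, n = 3) in DMSO+Sham, 5751 ± 178 in hispidulin+Sham, 4255 ± 634 in DMSO+AB and 4925 ± 209 in the hispidulin+AB group.

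Electron transfer flavoprotein is a dimer of Etfa and Etfb that accepts electrons from the acyl-CoA dehydrogenases, and Etfdh passes them on to ubiquinone. Etfa read 524, 494 and 554 in DMSO+Sham, 500.4, 468 and 519 in hispidulin+Sham, 432, 375 and 265 in DMSO+AB and 450.3, 442 and 402 in the hispidulin+AB mice. Etfb read 839.8, 842 and 811 in DMSO+Sham, 929.6, 802 and 795 in hispidulin+Sham, 646, 492 and 575 in DMSO+AB and 779.5, 686 and 567 in the hispidulin+AB mice. For Etfa the lowest banded mouse was mouse 3 and for Etfb it was mouse 2, and all banded mice without hispidulin stayed below the sham mice. Etfa fell 1.49-fold (log2 fold change -0.58, SE 0.15, adjusted p = 0.0426) and Etfb 1.46-fold (log2 fold change -0.55, SE 0.13, adjusted p = 0.0334), each held in 8 of 17 settings. Etfdh, with 271, 217 and 164 FPKM in DMSO+AB against 292 to 335 in DMSO+Sham, missed the threshold (log2 fold change -0.53, adjusted p = 0.0565). The ratio of Etfb to Etfa FPKM ranged from 1.31 to 2.17 in DMSO+AB, wider than the 1.47 to 1.70 of DMSO+Sham, with the extremes in mice 2 and 3.

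None of the 4 peroxisomal genes passed after banding, and 0 had an unadjusted p under 0.05 by limma. Acaa1a, the peroxisomal thiolase and the most abundant of the 4, stood at 49.4, 44.6 and 51.2 in DMSO+Sham, 48.4, 46.4 and 45.7 in hispidulin+Sham, 43.1, 44.2 and 52.7 in DMSO+AB and 47.0, 48.1 and 39.8 in the hispidulin+AB mice. Its groups overlapped fully, and the log2 fold change after banding was -0.06 (SE 0.11, adjusted p = 0.81). Ehhadh read 14.2, 5.29 and 7.50 in DMSO+Sham, 10.9, 7.10 and 9.99 in hispidulin+Sham, 5.07, 5.41 and 5.66 in DMSO+AB and 4.55, 6.69 and 6.17 in the hispidulin+AB mice. DMSO+Sham mouse 1 alone was high, DMSO+Sham mouse 2 was inside the banded range, and the estimate of -0.55 had a wide error (SE 0.27, adjusted p = 0.272). Hsd17b4, the other bifunctional enzyme, and Pecr had log2 fold changes of -0.11 and -0.14 (adjusted p = 0.619 and 0.538). Summed, the 4 genes reached 111 ± 9.22 FPKM (SD, n = 3) in DMSO+Sham and 101 ± 6.22 in DMSO+AB. Whether the peroxisomal and mitochondrial steps differ in their response was not tested, since genes are not replicates.

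**Figure D5:**
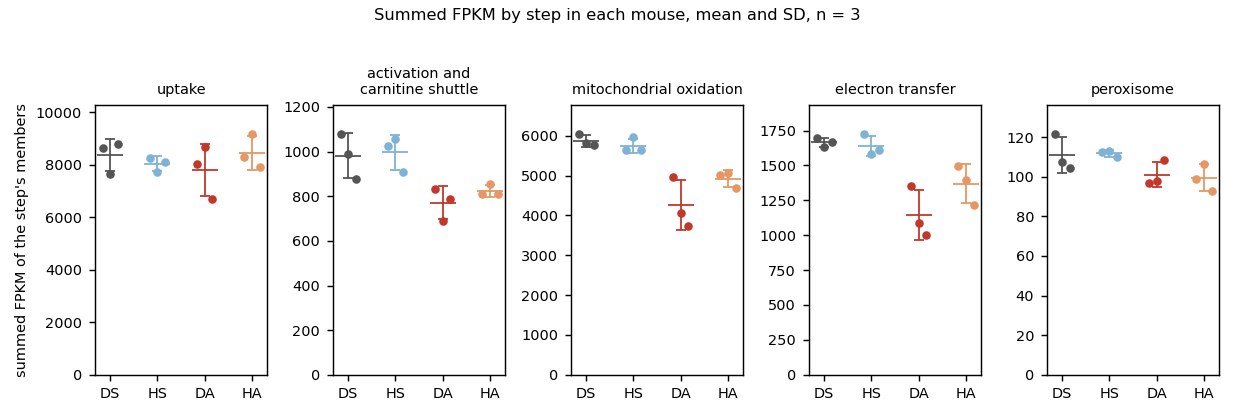
Summed FPKM of each step's genes in every mouse, with mean and SD (n = 3) and axes that start at 0. In the activation and carnitine shuttle, mitochondrial and electron transfer panels all banded mice, with or without hispidulin, lie below all sham mice. The groups overlap in the uptake panel, where Fabp3 makes up most of the sum.

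Within DMSO+AB, mouse 1 had the highest value of its group in 19 of the 30 genes, and mice 2 and 3 each had the lowest in 13. Mouse 1 also had the lowest hypertrophy gene sum of that group (4311 FPKM against 12735 and 16341). In hispidulin+AB, mouse 2 had the highest value in 19 genes and also the highest hypertrophy gene sum (6335 FPKM), mouse 3 had the lowest value in 24 genes and a sum of 5099 FPKM, and mouse 1, with the lowest sum (3818 FPKM), had the lowest value in 3 genes. This order within groups is a description over 3 mice and was not tested.

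The question of whether hispidulin altered these genes in the banded heart is addressed by hispidulin+AB against DMSO+AB. None of the 30 passed in either direction, and 0% of all genes tested passed (limma, all adjusted p of the set at least 0.996). At an unadjusted p under 0.05 the set held 3 genes, all higher with hispidulin, beside 3.1% of all genes. They were Acaa2 (log2 fold change 0.40, SE 0.13, unadjusted p = 0.0125 by limma), Hadhb (0.25, SE 0.11, unadjusted p = 0.041) and Decr1 (0.30, SE 0.13, unadjusted p = 0.0441). The estimate was higher in 26 of 30, beside 51.4% of all genes, with a median of 0.20 beside 0.00 over all genes, and Slc27a1 was the only gene whose groups did not overlap, beside 4.23% of all genes whose hispidulin+AB values all lay higher. Of the cardiomyocyte genes 6 of 8 had higher estimates (median 0.16), with sums of 49208 to 52247 FPKM in hispidulin+AB and 45813 to 50785 FPKM in DMSO+AB. Of the fibroblast genes 7 of 8 had lower estimates (median -0.34), with sums of 407 to 656 and 406 to 987 FPKM. All 5 red cell genes (globins and Alas2) also had lower estimates (median -0.26), with sums of 2237 to 4981 and 3554 to 4624 FPKM. All 4 smooth muscle genes had higher estimates (median 0.39), 1 of them with an unadjusted p under 0.05 by limma. None of these markers passed, and their part in the higher values was not tested.

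By step, the median log2 fold change of hispidulin+AB against DMSO+AB was 0.34 for uptake, 0.08 for activation and the shuttle, 0.23 for mitochondrial oxidation, 0.28 for electron transfer and 0.02 for the peroxisome. The largest estimates by step were those of Lpl (0.35, SE 0.22), Cpt2 (0.20, SE 0.12), Acaa2, Etfa (0.30, SE 0.15) and Ehhadh (0.08, SE 0.27). Several of these rested on DMSO+AB mouse 3. Without it the median was 0.09 for uptake, 0.10 for electron transfer and 0.14 for mitochondrial oxidation, and the estimate was 0.11 for Lpl, 0.07 for Cd36 (0.34 with all mice) and 0.10 for Etfa. Without DMSO+AB mouse 1 the medians were higher, at 0.43 for uptake, 0.14 for activation and the shuttle, 0.34 for mitochondrial oxidation and 0.45 for electron transfer. Without DMSO+AB mouse 2 the median for activation and the shuttle was 0.04 and Cpt2 had 0.07, and the peroxisomal median stayed within 0.00 to 0.06 over the DMSO+AB mice left out. For Slc27a1 the estimate with all mice was 0.34 (SE 0.22), for Hadha 0.26 (SE 0.12) and for Cpt1b 0.03 (SE 0.10). Mlycd, Acads, Acaa1a and Hsd17b4 had estimates below 0, of -0.04, -0.01, -0.05 and -0.03. The 95% intervals were wide, 0.10 to 0.69 for Acaa2, -0.07 to 0.46 for Cpt2 and -0.42 to 0.33 for Mlycd, so the lack of calls does not show that hispidulin left these genes as they were.

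The DMSO+AB mice are in both comparisons, so a low group alone pulls them in opposite directions, and the values are set side by side without a test. Of the 28 genes with a lower mean in DMSO+AB than in DMSO+Sham, the hispidulin+AB mean lay between both in 24 and below DMSO+AB in 4. For Acaa2 the means were 653 ± 1.93, 388 ± 91.1 and 503 ± 42.2 FPKM (SD, n = 3) for DMSO+Sham, DMSO+AB and hispidulin+AB, and for Slc27a1 they were 87.3, 35.1 and 45.0 FPKM from the values given above. By these means hispidulin+AB stayed nearer to DMSO+AB than to DMSO+Sham for both genes. The median estimate of hispidulin+AB against DMSO+AB was 0.10 without DMSO+AB mouse 3 and 0.28 without DMSO+AB mouse 1, where Acaa2 alone passed (log2 fold change 0.58, adjusted p = 0.0483, limma). Within the high number series (2 mice against 2) the median was 0.13 with 29 genes higher, and within the low series (1 against 1) 0.17 with 21 higher.

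Without banding, hispidulin left no difference that passed. Between hispidulin+Sham and DMSO+Sham 0 of 30 genes passed (limma, adjusted), 0 had an unadjusted p under 0.05 beside 2.46% of all genes, and the median log2 fold change was -0.03. With the replicate number as a block, although the labels give no pairing of mice, the counts were again 0 and 0. The estimates divided into 12 higher and 18 lower. Cpt1a came nearest, with a log2 fold change of 0.34 (SE 0.16, unadjusted p = 0.0503 by limma), and Slc27a1 had -0.41 (SE 0.22, unadjusted p = 0.0899). Echs1 was the only gene whose groups did not overlap, at 306, 283 and 290.5 FPKM in hispidulin+Sham and 314, 317 and 318 in DMSO+Sham, beside 5.6% of all genes that did not overlap in either direction. The 5 red cell genes all had higher estimates with hispidulin (median 0.83, none passing), with sums of 3451 to 10251 FPKM in hispidulin+Sham and 2688 to 4391 FPKM in DMSO+Sham.

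Banding under hispidulin was also compared with its own sham group. Between hispidulin+AB and hispidulin+Sham 0 of 30 genes passed (limma, adjusted), and 0% of all genes did. At an unadjusted p under 0.05 there were 9, all lower, beside 7.26% of all genes, and they were Slc27a1, Acsl1, Crat, Mlycd, Hadha, Hadhb, Acaa2, Etfb and Ehhadh. With the replicate number as a block, again without a pairing in the labels, 8 had an unadjusted p under 0.05, all lower, and 0 passed (lowest adjusted p = 0.464, limma). In the model without the block Acaa2 had the smallest p (log2 fold change -0.42, SE 0.13, unadjusted p = 0.0092 by limma), followed by Mlycd (-0.47, SE 0.17, unadjusted p = 0.0176). The estimate was lower in 29 of 30, beside 54.9% of all genes, with a median of -0.21, and in 19 the groups did not overlap, beside 11.8% of all genes. Fabp3 was the exception, at 0.15 (SE 0.10). Of the markers in this comparison, all 8 fibroblast genes had higher estimates (median 0.38), 4 of them with groups that did not overlap, and all 5 red cell genes had lower ones (median -0.77). The fibroblast sums were 407 to 656 FPKM in hispidulin+AB and 354 to 483 FPKM in hispidulin+Sham, and the red cell sums 2237 to 4981 and 3451 to 10251 FPKM. Of 4 smooth muscle genes 3 had higher estimates and 1 a lower one (median 0.30), and 2 had an unadjusted p under 0.05 by limma. No marker of these lists passed, and their part in the lower values was not tested.

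Whether the response to banding differed between hispidulin and DMSO was tested as an interaction in the same limma model. None of the 30 genes passed, and 1, Slc27a1, had an unadjusted p under 0.05, beside 2.48% of all genes. Its fall of -1.23 under DMSO stood beside -0.49 under hispidulin, a difference of 0.74 on the log2 scale (SE 0.31, unadjusted p = 0.0349, adjusted p = 0.999). The interaction takes in both sham groups, in which Slc27a1 averaged 87.3 ± 28.7 FPKM with DMSO and 63.7 ± 11.4 FPKM with hispidulin (SD, n = 3). The interaction estimate was above 0 in 24 of 30 genes, beside 53.4% of all genes tested, including all 4 for uptake, all 13 for mitochondrial oxidation and all 3 for electron transfer, and in 0 of 4 for the peroxisome.

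A wider list of 64 genes of fatty acid handling and its regulators, of which 62 were tested, was read beside the set for DMSO+AB against DMSO+Sham. Of these 8 fell and 0 rose, against 2.71% of all genes tested that fell and 2.5% that rose, and at an unadjusted p under 0.05 there were 17 lower and 4 higher, against 11.1% and 9.25%. Ech1, which isomerises dienoyl-CoA, had 1511, 1294 and 1382 FPKM in DMSO+Sham and 979, 714 and 762 in DMSO+AB, and fell with a log2 fold change of -0.78 (SE 0.13, adjusted p = 0.0111, limma). Vldlr, the very low density lipoprotein receptor, fell by 0.71 on the log2 scale (adjusted p = 0.0153, limma), Acot2, a mitochondrial thioesterase, by 0.71 (adjusted p = 0.0304), Acacb, the acetyl-CoA carboxylase that makes malonyl-CoA at the mitochondrion, by 0.59 (adjusted p = 0.0441), Acad11, an acyl-CoA dehydrogenase, by 0.45 (adjusted p = 0.0354) and Phyh, the peroxisomal phytanoyl-CoA hydroxylase, by 0.34 (adjusted p = 0.0396). Among 14 regulators, Klf15, a metabolic transcription factor, fell by 0.72 (adjusted p = 0.0278, limma) and Rxra, the partner of PPAR receptors, by 0.55 (adjusted p = 0.0247). Ppara, the receptor that drives fatty acid oxidation genes, had 15.6, 17.5 and 10.4 FPKM in DMSO+Sham and 12.0, 9.10 and 11.3 in DMSO+AB and did not pass (log2 fold change -0.37, SE 0.17, adjusted p = 0.254). The estrogen-related receptor gene Esrra (-0.06, SE 0.16) and the coactivator gene Ppargc1a (0.00, SE 0.28) gave estimates within their errors. None of the 62 passed between hispidulin+AB and DMSO+AB, where 3 had an unadjusted p under 0.05 by limma, beside 3.1% of all genes, and 44 estimates were higher, beside 51.4% of all genes.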

How the data were processed

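Left ventricular RNA of 12 mice, 3 in each of 4 groups taken from the sample titles, was analysed. The authors deposited FPKM for 18079 genes, rounded to 0.01, from single-end reads of 50 bases on a BGISEQ-500. The submitters' processing notes name HISAT2 2.0.4, Bowtie2 2.2.5, RSEM 1.2.12 and DESeq2 1.4.5 without their roles. The genome build and annotation are not given in the sources used here. Read counts were not used here. Depth was not recoverable: among 18491 ratios between low values 18.5% were whole to within 0.1, where an even spread gives 20%.

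Symbols were matched through the RefSeq gene table for 17947 genes (99.3%). From the FPKM, log2(FPKM + 1) was tested in R 4.3.3 with limma 3.58.1 for the 11664 genes that reached an FPKM of 1 in 3 or more of 12 libraries. The model held 1 mean per group over all libraries (8 error degrees of freedom), with eBayes allowing a trend of variance with mean. Tests were two-sided and adjusted by Benjamini-Hochberg, and a call needed an adjusted p under 0.05. FPKM are relative to the library total, so a very abundant gene that changes moves all others. Fold changes on this scale understate those of low genes. Tests were run on simulated data beforehand. Tables were prepared with Python 3.11.15 and pandas 2.3.3. Exact permutation tests were used for the share of Cpt1a.

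The 30 members, the wider pathway list and the marker lists were chosen with earlier results of these data known. Values in every mouse are given for members that passed in any comparison, for the most abundant member and the members of largest change in each step, for Cpt1a and Cpt1b, and for Hadha and Hadhb. Of the wider list, genes that passed and Ppara, Ppargc1a and Esrra are named. Replicate numbers in the titles belong to different mice. The labels give no pairing of mice between groups. Residuals of same-numbered mice correlated by 0.126, 0.33 and 0.232 between hispidulin+Sham and DMSO+Sham and by 0.147, 0.197 and 0.228 between hispidulin+AB and hispidulin+Sham. For these comparisons results with the replicate block are given beside the main ones, although such values do not make a pairing. The correlations were -0.0239, -0.0443 and -0.198 between DMSO+AB and DMSO+Sham and 0.3, 0.176 and -0.183 between hispidulin+AB and DMSO+AB. Alternatives were adding 0.1 in place of 1, dropping the filter or raising it to an FPKM of 5, quantile normalization, scaling by median of ratios, weighting libraries, dropping the trend, the replicate block, a covariate for the number series, fitting the compared libraries alone, and leaving out each mouse. Leaving out the 3 libraries of raised Myl7 was chosen after seeing the data. Overlapping genes were read from GENCODE vM21.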

Additional observations from a re-analysis of the deposited data

How the results depend on the processing

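The count of genes lower in DMSO+AB than in DMSO+Sham, 12 of 30, was 12 with 0.1 added in place of 1 and with quantile normalization, 13 with an FPKM of at least 5, 8 without the trend and 11 with the replicate block. It was 4 without the filter on low values, where more genes are adjusted for, 7 with median-of-ratios scaling, 20 with library weights, 0 with a covariate for the series of animal numbers, 0 with only the libraries compared and 0 without the 3 libraries of raised Myl7. Leaving out 1 mouse gave 0 to 18. The causes of these shifts were not tested. Leaving out 1 mouse moved the median log2 fold change of the 30 genes between -0.54 and -0.36. Between hispidulin+AB and DMSO+AB the count was 0 in every setting, except for 1 without DMSO+AB mouse 1 (leave-outs gave 0 to 1), and the replicate block changed no other call. The counts for the other comparisons and the interaction were 0 in every setting run.

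The log2 fold change of Cpt1a after banding, 0.08, turned to -0.13 with library weights and ranged from -0.10 to 0.24 over the mice left out. Between hispidulin+AB and DMSO+AB, estimates near 0 changed sign: Acads was 0.0392 and Hsd17b4 0.00505 with quantile normalization, and with library weights Fabp3 was -0.00961, Cpt1a -0.0189, Mlycd 0.0260, Acads 0.0594 and Acaa1a 0.00416. Cpt1a was -0.0147 without the 3 libraries of raised Myl7. Over the mice left out the estimates ranged from -0.0461 to 0.0422 for Cpt1a, from -0.00944 to 0.0667 for Cpt1b, from -0.0260 to 0.137 for Fabp3, from -0.150 to 0.0923 for Mlycd, from -0.0832 to 0.0704 for Acads, from -0.105 to 0.0366 for Acaa1a, from -0.00325 to 0.124 for Echs1, from -0.0153 to 0.220 for Ehhadh and from -0.0392 to 0.135 for Pecr. The difference in the share of Cpt1a ranged from -0.41 to 0.20 percentage points there. With 3 mice a group and unknown depth, small differences were not detectable.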
